A study of Mus musculus with 6 samples.

Results

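The genes described here encode the nuclear-encoded subunits of the mitochondrial respiratory chain and of ATP synthase, with a few close relatives that share their names. They were chosen by symbol alone: the series Nduf with a letter a, b, c, s or v, Sdha to Sdhd, symbols beginning Uqcr, the nuclear-encoded Cox subunits of the families 4 to 8, and symbols beginning Atp5. This gave 84 of the 24147 deposited gene rows: 35 of complex I, 4 of complex II, 8 of complex III, 20 counted here with complex IV and 17 of ATP synthase (complex V). RNA came from the lens capsule with the epithelial cells attached to it, in wild-type C57BL/6 mice 2 months old, after lens fiber cells had been removed in a model of cataract surgery. One group was collected straight after the operation (0 h, 3 libraries) and the other 24 h later (3 libraries), so every group had the operation and neither group is unoperated. The number of animals or eyes behind a library is not known here, and p-values measure the spread between these libraries.

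As background, complexes I and II pass electrons from NADH and succinate to ubiquinone, complex III passes them on to cytochrome c, and complex IV to oxygen. Complexes I, III and IV pump protons, and ATP synthase uses the resulting gradient to make ATP. Most subunits are encoded in the nucleus and imported, while the mitochondrial genome supplies the rest, which were not analysed here. In the lens the epithelium holds most of the mitochondria, because fiber cells clear their organelles as they mature. Bulk RNA was measured, so fewer cells of a type and less RNA per cell cannot be told apart.

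Library depth was 8069314 to 10862573 counts, with 16248 to 16962 genes detected per library. Values by library are given as CPM, a library's counts divided by its total and rescaled by TMM, which sets most genes level between libraries, and levels are compared between genes only as RPKM, which also divides by gene length. Libraries are listed as 0 h replicates 1, 2 and 3, then 24 h replicates 1, 2 and 3. Changes are log2 fold changes of 24 h over 0 h with standard error (SE), from edgeR's quasi-likelihood test with Benjamini-Hochberg adjustment over all 13956 genes tested. A gene is called at an adjusted p under 0.05, and rose or fell is written only of called genes.

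The regulatory sequence of these genes is shown first because many nuclear respiratory genes are known to be driven by a small set of transcription factors. NRF1, ETS-family proteins such as GABP, YY1 and the estrogen-related receptors (ERR) are the best known of them. RefSeq promoter windows (GRCm38.p6, 250 bases before to 50 bases after a start) were found for 66 members, in 71 windows. Each was searched on both strands for the NRF1 motif (GCGCA and GCGC with any base between them), the ETS motif CCGGAAG, the YY1 motif AAGATGGCG and the ERR motif TCAAGGTCA, none of which contains another, though neighbouring ETS and YY1 matches can share the letters AAG. The NRF1 letters stood in 18 windows (25.4%, against 4.6% of all 32851 windows), the ETS letters in 16 (22.5% against 8.86%), the YY1 letters in 7 (9.86% against 1.4%) and the ERR letters in 2 (2.82% against 0.423%). At least 1 of the 4 stood in 35 windows, 49.3% against 13.9% of all windows. The members' windows were richer in G and C, with a median of 57.3% against 52.7%. Among all windows within the members' middle range of GC content, 20% held at least 1 motif. The NRF1 letters stood in 6.2% of these, the ETS letters in 13.2%, the YY1 letters in 2.16% and the ERR letters in 0.288%. A match describes the letters and shows no binding.

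Of the windows, 4 with 2 or more kinds of motif are printed to show how the motifs lie together. They are given 5′ to 3′ on the minus strand, on which all 4 genes lie, with motif matches in capitals. Sdhd, a membrane anchor of complex II, stands at chr9:50603800-50604099 and holds NRF1, ETS and ERR letters. Atp5g3, a gene for the c ring of ATP synthase, stands at chr2:73911277-73911576 and holds ERR and NRF1 letters. Cox6a1, a subunit of complex IV, stands at chr5:115348909-115349208 and holds 2 NRF1 matches and an ETS match. Ndufs6, an accessory subunit of complex I, stands at chr13:73328433-73328732 and holds NRF1 and YY1 letters, the second near the end of the window.
Sdhd: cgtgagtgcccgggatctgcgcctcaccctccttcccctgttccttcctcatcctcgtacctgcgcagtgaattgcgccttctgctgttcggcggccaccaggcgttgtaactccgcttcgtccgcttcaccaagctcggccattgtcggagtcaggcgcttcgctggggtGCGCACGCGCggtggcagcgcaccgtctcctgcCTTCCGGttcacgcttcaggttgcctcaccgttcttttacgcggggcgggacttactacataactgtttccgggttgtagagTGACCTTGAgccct
Atp5g3: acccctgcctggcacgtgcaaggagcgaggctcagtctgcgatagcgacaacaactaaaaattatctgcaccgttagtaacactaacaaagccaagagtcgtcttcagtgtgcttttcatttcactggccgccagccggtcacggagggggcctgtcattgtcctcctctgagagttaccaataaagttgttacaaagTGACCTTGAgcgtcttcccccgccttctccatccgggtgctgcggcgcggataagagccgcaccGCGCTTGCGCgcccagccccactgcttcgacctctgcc
Cox6a1: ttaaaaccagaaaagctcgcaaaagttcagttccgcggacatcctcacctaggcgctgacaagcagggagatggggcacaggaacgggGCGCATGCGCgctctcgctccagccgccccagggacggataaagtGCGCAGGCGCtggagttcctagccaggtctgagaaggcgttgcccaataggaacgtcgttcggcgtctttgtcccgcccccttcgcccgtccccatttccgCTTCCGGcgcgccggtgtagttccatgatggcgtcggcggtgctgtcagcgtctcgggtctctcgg
Ndufs6: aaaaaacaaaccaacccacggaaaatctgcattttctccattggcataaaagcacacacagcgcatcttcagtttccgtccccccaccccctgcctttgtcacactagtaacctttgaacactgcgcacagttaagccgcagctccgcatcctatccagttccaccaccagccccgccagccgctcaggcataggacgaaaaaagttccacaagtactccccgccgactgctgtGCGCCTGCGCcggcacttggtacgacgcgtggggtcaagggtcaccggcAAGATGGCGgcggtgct

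The windows of the 3 genes that changed, Cox5a, Ndufv2 and Cox7a2l, held none of the 4 motifs, nor did that of Atp5b, the member with the highest level. Windows without a motif were common, since only 35 of the members' 71 windows held any. No window was found in the table for Ndufa4l2. Of the genes printed, none passed the test: log2 changes were 0.27 ± 0.19 (SE) for Sdhd, 0.47 ± 0.16 for Atp5g3, -0.02 ± 0.22 for Cox6a1 and -0.49 ± 0.27 for Ndufs6.

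As a group the respiratory chain genes stayed close to their 0 h level while 28.2% of all genes tested were called. Of the 78 members tested, 2 rose (Cox5a and Ndufv2) and 1 fell (Cox7a2l), which is 3.85%. Over all genes 15.2% were called higher and 13.0% lower. At an unadjusted p under 0.05 there were 5 members higher and 5 lower, where the background is 20.7% and 19.3% of genes. All 24 h libraries lay above all 0 h libraries for 9 members and below them for 6, against 22.8% and 21.9% of all genes. The count of called members moved with single libraries. Without 0 h replicate 1 there were 4 higher and 0 lower, without 24 h replicate 3 there were 0 higher and 3 lower, and without any other library 1 member was called.

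The members' changes were small as well as few. Their log2 changes ran from -1.95 to 0.67 with a median of -0.03, the same to 2 decimals as over all genes tested, and 35 were positive and 43 negative. A change under 0.5 on the log2 scale was found for 70 of 78 members (89.7%), against 55.2% of all genes. A change beyond 1 was found for 1 of 78 members, against 2799 of 13956 genes. The 95% interval of the change lay within 2-fold in both directions for 65 members (83.3%), against 47.5% of all genes. It lay within 1.5-fold for 25 of 78 members, against 2383 of 13956 genes. These genes are well expressed, so the comparison was repeated among genes with a mean of at least 20 RPKM. There, 4.48% of 67 members were called against 38.9% of 2977 genes, and the interval lay within 2-fold for 91% against 63.5%. Those members were shorter, with a median length of 681 bases against 2532, so their counts are lower at the same RPKM. Among genes under 700 bases, 2.56% of 39 members were called against 20.2% of 307 genes. The forest plot gives the members' changes one by one, and the histogram sets their spread beside that of all genes.

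**Figure D1:**
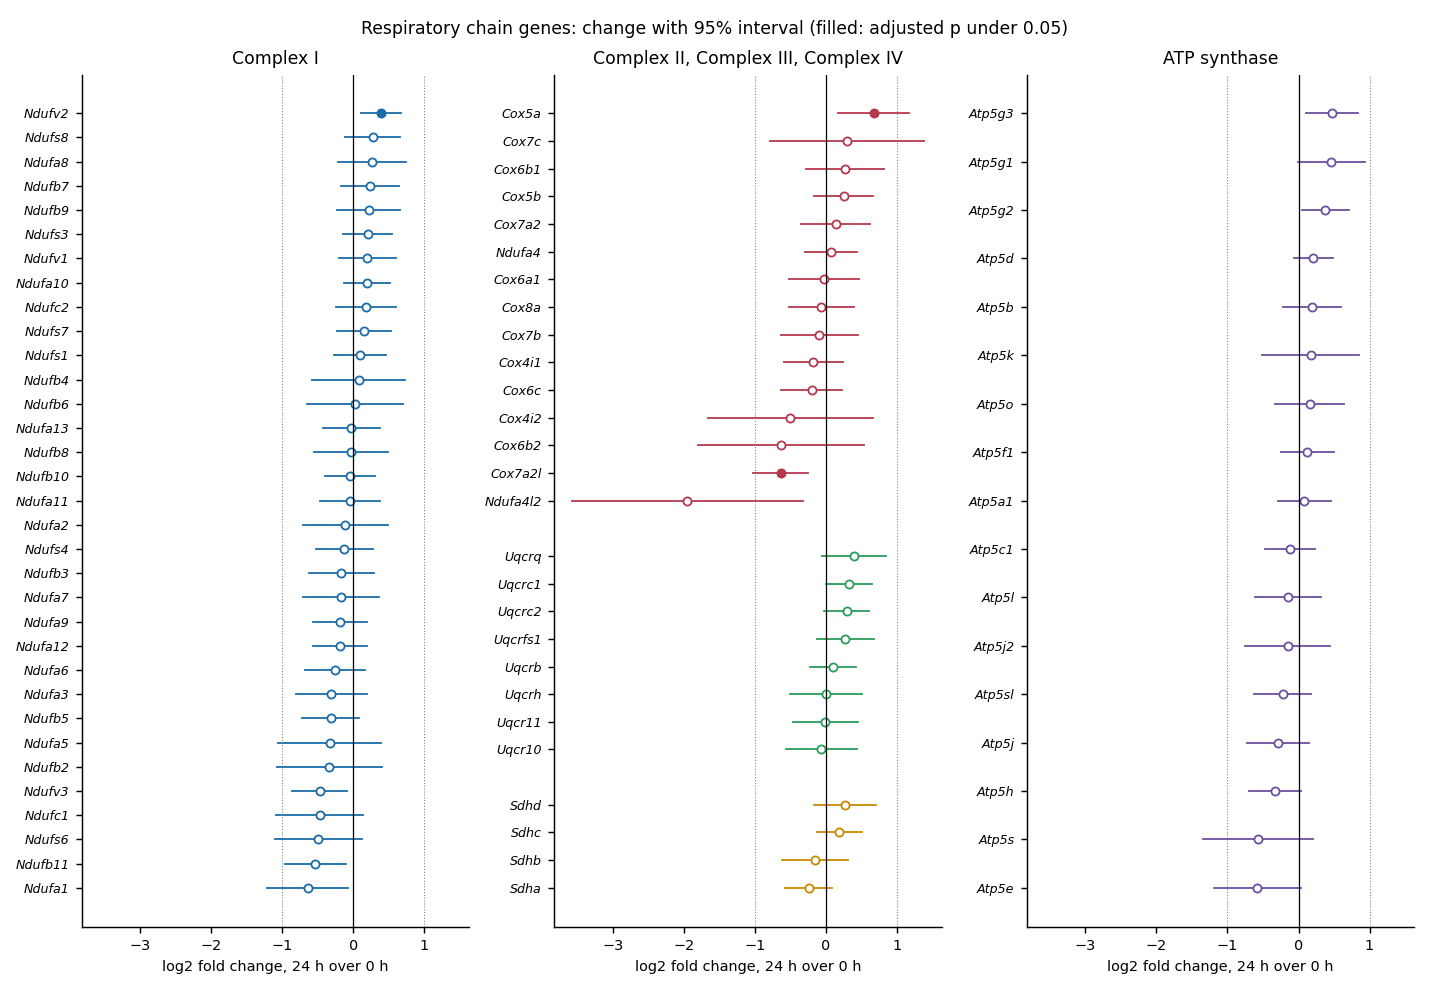
Log2 fold change of 24 h over 0 h (horizontal axis) with its 95% interval for 77 of the 78 members tested, in rows grouped by complex. Filled points passed an adjusted p of 0.05: Ndufv2 (0.39), Cox5a (0.67) and Cox7a2l (-0.63). Most points lie between -0.5 and 0.5, and Ndufa4l2 stands apart at -1.95 with the widest interval.

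**Figure D2:**
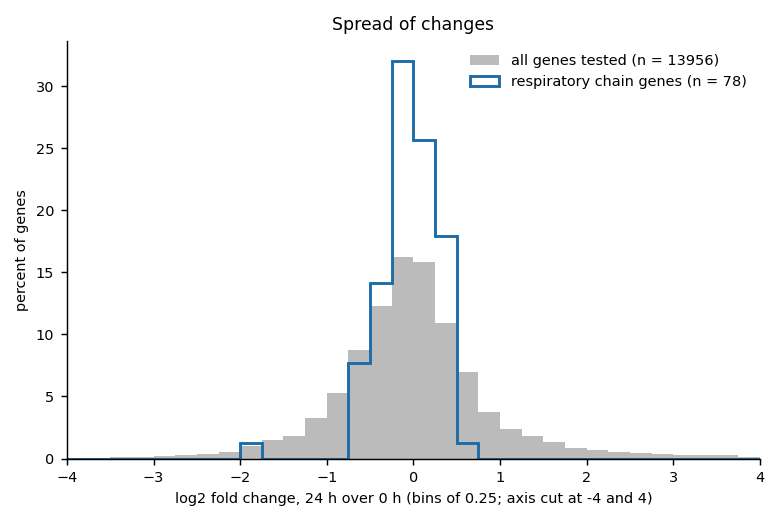
Percent of genes (vertical axis) in bins of log2 fold change (horizontal axis, shown from -4 to 4) for all 13956 genes tested (grey) and the 78 respiratory chain genes (blue outline). The outline is narrower than the grey shape: 89.7% of members and 55.2% of all genes changed by under 0.5.

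There were 6 members not tested because of low counts. Cox7b2 and Cox8c, known as testis forms, and Ndufs5, an accessory subunit of complex I, had 0 counts in all 6 libraries, which allows up to 0.301 to 0.384 CPM in a library (3 counts, counting error only). The heart and muscle forms were nearly as low, with 3 counts in all for Cox6a2, 37 for Cox8b and 40 for Cox7a1. The 0 of Ndufs5 stands alone among the ubiquitous subunits. Its deposited row (chr4:123712710-123718186, mm10) is overlapped over 99.5% of its span by a row named BC002163 that starts at the same base and also held 0 counts, and a near-identical pseudogene copy exists, so this 0 may not be a measure of expression.

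Complex I takes electrons from NADH. Its 7 nuclear-encoded core subunits include those that hold the flavin and the iron-sulphur centres, and its accessory subunits surround them. Ndufv2, a core subunit of the NADH-binding end (chr17:66078795-66101559), rose from 50.4, 44.3 and 46.4 CPM to 58.4, 64.7 and 62.4 CPM. All 24 h libraries lay above all 0 h libraries, and the log2 change was 0.39 ± 0.12 (SE), adjusted p = 0.0441 by edgeR. The call was lost in 5 of the 6 fits that left out 1 library (adjusted p of 0.056 to 0.136) and held without 0 h replicate 1 (0.0424). It was also lost with no filter on low counts (0.0697), while the change stayed between 0.35 and 0.48. The other 6 core subunits did not pass the test. Ndufs8 was at 20.1, 16.2 and 20.1 CPM and then 22.9, 22.9 and 22.4 CPM (0.27 ± 0.17), without overlap between the times. Of the 7 core subunits, 6 had a positive change, with a median of 0.20, and under every alternative scaling, filter and left-out library the median stayed positive (0.12 to 0.28).

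The accessory subunits of complex I leaned the other way, with 7 positive and 20 negative changes among 27 tested and a median of -0.17. Without 0 h replicate 1 there were 15 positive and 12 negative and a median of 0.08. Without 24 h replicate 1 they numbered 11 and 16, with a median of -0.01, and with library totals only the median was -0.08. None was called by edgeR with TMM scaling, DESeq2 or limma-voom, and 3 were lower at an unadjusted p under 0.05. Ndufb11, a small membrane subunit (chrX:20615326-20617564), was at 35.8, 29.1 and 39.2 CPM and then 21.3, 21.6 and 28.8 CPM, so the groups did not overlap, but the change of -0.54 ± 0.19 had an adjusted p of 0.0634 by edgeR. Ndufv3, which sits at the NADH-binding end, was at 44.7, 37.7 and 39.4 CPM and then 25.2, 27.2 and 35.3 CPM (-0.47 ± 0.17, adjusted p = 0.0692 by edgeR). Both genes were called lower without 24 h replicate 3 and with the mean log2 level of photoreceptor markers as a covariate. There the adjusted p of Ndufb11 was 0.0330 and 0.0125 by edgeR. Ndufa1, with the highest level of the complex at 65.8 RPKM, was at 48.6, 29.7 and 40.5 CPM and then 17.5, 27.5 and 30.9 CPM. Its groups overlapped, and the change was -0.64 ± 0.25. Ndufa11 had the lowest level at 10.9 RPKM and a change of -0.05, which turned to 0.05 with library totals only. Ndufb11 overlaps Rbm10 on the other strand over 12.9% of its exonic bases, and how the counting treated strand is not known here.

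Summed over genes, core subunits came to 312.9, 290.9 and 291.7 CPM at 0 h and 342.4, 305.4 and 351.4 CPM at 24 h. Accessory subunits came to 816.9, 607.5 and 681.0 CPM and then 579.8, 657.6 and 679.1 CPM. The log2 ratio of core to accessory was -1.38, -1.06 and -1.22 at 0 h and -0.76, -1.11 and -0.95 at 24 h. The groups overlapped because 0 h replicate 2 lay above 24 h replicate 2. Division into core and accessory followed textbook roles and was written after a look at the counts, and it was given no test. Gene length is tied to this division: accessory genes had a median length of 635 bases and core genes 1606. Among all members tested, the 39 under 700 bases had a median change of -0.04 and the 39 of 700 bases or more 0.08, against 0.11 and -0.03 for all genes split in the same way.

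Complex II, which is also an enzyme of the citric acid cycle, is encoded wholly in the nucleus. None of its 4 genes was called by edgeR, DESeq2 or limma-voom, nor had any an unadjusted p under 0.05. Sdha, the flavoprotein and the highest of the 4 at 69.3 RPKM, was at 222, 223 and 199 CPM and then 200.5, 159.8 and 184 CPM (-0.24 ± 0.14, adjusted p = 0.246 by edgeR). Sdhb, the iron-sulphur subunit and the lowest at 40.4 RPKM, had a change of -0.15. Sdhd, a membrane anchor, was at 56.0, 46.5 and 52.6 CPM and then 58.6, 48.0 and 79.8 CPM, so its mean at 24 h rests on replicate 3. Both catalytic genes had a negative change and both anchors a positive one, and all 4 intervals lay within 2-fold. Without 24 h replicate 1, 1 of the catalytic genes had a positive change. The anchors' median went from 0.23 to 0.07 without 24 h replicate 3.

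In complex III the 2 core proteins, which face the matrix, stood above their 0 h libraries without passing the test. None of the 8 members of the complex was called by edgeR with TMM scaling, DESeq2 or limma-voom. Among them, 1 was higher at an unadjusted p under 0.05. Cyc1, a gene of the complex outside the naming rule, rose and is described further below. Uqcrc1 was at 85.0, 65.2 and 73.4 CPM and then 100.6, 85.8 and 93.9 CPM (0.33 ± 0.14, adjusted p = 0.124 by edgeR), and with library totals only it was called higher (0.41, adjusted p = 0.0415). Uqcrc2 was at 102.4, 93.9 and 80.3 CPM and then 118, 104 and 116 CPM (0.29 ± 0.14, adjusted p = 0.157). Neither gene's groups overlapped, by a narrow margin in each. These were the only 2 of the 8 members with all 24 h libraries above, near the share of all genes (22.8%). Uqcrfs1, the Rieske iron-sulphur protein with the lowest level of the complex (30.8 RPKM), had a difference of 0.27 ± 0.18. Uqcrb, which helps bind ubiquinone and had the highest level (90.6 RPKM), had one of 0.10. The 5 small accessory genes had a median change of -0.0016, positive under most other settings. All 8 members together had a median of 0.19, with every interval within 2-fold.

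Complex IV held 2 of the 3 called members, which is 13.3% of its 15 genes tested, under the 28.2% of all genes. Cox5a, a matrix-facing subunit (chr9:57521232-57532426), rose from 26.9, 19.4 and 20.2 CPM to 28.6, 45.3 and 32.2 CPM. All 24 h libraries were above all 0 h libraries, but 24 h replicate 1 only just (28.6 against 26.9 CPM). The change of 0.67 ± 0.22 stood at the threshold (adjusted p = 0.0497 by edgeR), held without 0 h replicate 1 or 24 h replicate 1 (0.0411 and 0.0348) and was lost without any other library (0.0565 to 0.156). By limma-voom its adjusted p was 0.0536. Without 24 h replicate 2 the log2 change was 0.46. On the opposite strand, Gm26631 shares 12.8% of the gene's exonic bases. Cox5b, another nuclear-encoded subunit, had a change of 0.25 ± 0.18 and was not called.

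Cox7a2l, also known as the supercomplex factor SCAF1, joins complexes III and IV and is a relative of the Cox7a subunits (chr17:83501917-83514333). It fell from 87.6, 61.8 and 59.6 CPM to 43.2, 45.2 and 46.3 CPM. The 3 libraries at 24 h lay close together and below all 0 h libraries, and the change was -0.63 ± 0.17 (adjusted p = 0.0238 by edgeR). Much of the spread came from 0 h replicate 1, and without it the change was -0.40 with an adjusted p of 0.0639. The call was also lost without 24 h replicate 1 (0.0862) or replicate 2 (0.059). A pseudogene copy identical over the stretch compared exists, so reads may have been split between them.

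Ndufa4l2 had the largest difference among the members but did not pass the test. It is a relative of Ndufa4, a subunit first placed in complex I and later in complex IV, and is known as a gene induced in hypoxia by HIF-1 (chr10:127514939-127517156). It was at 9.41, 27.0 and 19.7 CPM at 0 h and 2.43, 10.8 and 1.16 CPM at 24 h. The groups overlapped, since 24 h replicate 2 lay above 0 h replicate 1, and the change was -1.95 ± 0.71 (95% interval -3.57 to -0.32, adjusted p = 0.0737 by edgeR). Without 24 h replicate 2 it was -3.39 with an adjusted p of 0.00535. DESeq2 and limma-voom called it lower on all 6 libraries (adjusted p = 0.0136 and 0.049). Ndufa4 itself was at 44.3 ± 6.55 CPM and then 46.7 ± 5.82 CPM (SD, n = 3).

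**Figure D3:**
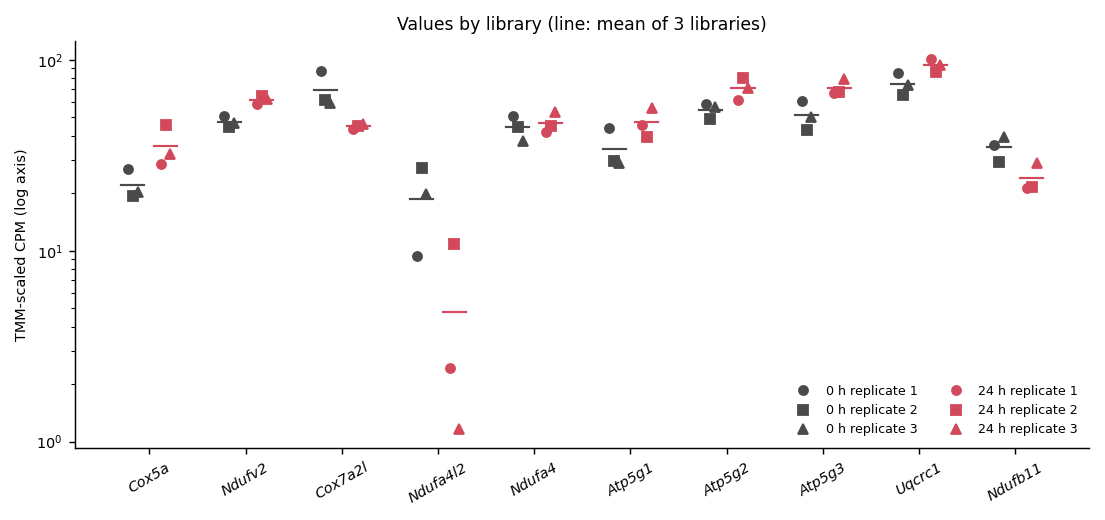
TMM-scaled CPM (vertical log axis) of 10 members in each library, with 0 h in grey, 24 h in red, 1 symbol shape per replicate number and a line at the mean of 3 libraries. Cox5a, Ndufv2, Atp5g2, Atp5g3 and Uqcrc1 show all 24 h points above the 0 h points and Cox7a2l and Ndufb11 below them, while Ndufa4l2 spreads from 9.41 to 27.0 at 0 h and from 1.16 to 10.8 at 24 h.

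In the rest of complex IV no gene was called. Cox4i1, whose level was the highest of the complex at 164 RPKM, was at 153, 100.1 and 103 CPM and then 98.6, 106 and 110 CPM. Cox8a (139 RPKM) and Cox6a1 (109 RPKM) had changes of -0.06 and -0.02 that turned to 0.04 and 0.06 with library totals only, and 0 h replicate 1 was the highest library for all 3. Of 12 nuclear-encoded structural subunits tested, 5 had a positive and 7 a negative change, with a median of -0.04. The median of all 15 genes of the complex went from -0.06 to 0.04 with library totals only and to 0.21 without 0 h replicate 1. Cox7c is listed at 6.55 RPKM, far under the other ubiquitous subunits, and has 2 pseudogene copies at 98% identity or more, so its count is uncertain.

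Complex IV and ATP synthase have paired genes for the same position, and the forms known from other tissues were minor here. The lung and hypoxia form Cox4i2 gave 2.41% of the Cox4i1 and Cox4i2 level at 0 h and 1.92% at 24 h, at 3.80, 3.30 and 2.19 CPM and then 1.92, 3.50 and 1.16 CPM. Cox6b2, a testis form, gave 15.8% and then 9.29% of its pair. It was at 5.31, 8.10 and 6.46 CPM and then 6.64, 1.38 and 4.86 CPM, lowest in 24 h replicate 2. The muscle forms Cox7a1 and Cox8b gave 5.37% and 1.74% of their pairs at 0 h and 6.79% and 0.829% at 24 h. Ndufa4l2 gave 17.8% of its pair at 0 h and 4.97% at 24 h. Over 7 pairs tested by an exact two-sided permutation test of the log2 ratio, raw p ran from 0.2 (Ndufa4l2 over Ndufa4, a difference of -2.50) to 0.9, and no adjusted p was under 0.84. With 3 against 3 libraries the smallest possible p is 0.1. The span of Cox4i2 is overlapped over 58% by the row of Bcl2l1, and 16 striated muscle marker genes summed to 30.1 to 44.1 CPM at 0 h and 15.7 to 21.2 CPM at 24 h. Whether muscle RNA contributed to these forms was not tested.

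ATP synthase had the highest median level per length of the 5 complexes. No member was called by edgeR with TMM scaling, DESeq2 or limma-voom, and 2 were higher at an unadjusted p under 0.05. Atp5b and Atp5a1, the catalytic and partner subunits of the F1 head, stood at 347 and 193 RPKM. Atp5b was at 718, 549 and 559 CPM and then 739, 613 and 732 CPM (0.19 ± 0.18). The times overlapped, with 0 h replicate 1 inside the range of the 24 h libraries. Atp5e, the smallest F1 subunit, was at 25.9, 13.7 and 15.0 CPM and then 11.5, 12.2 and 12.9 CPM (-0.58 ± 0.27, adjusted p = 0.146 by edgeR). The 5 F1 genes had a median change of 0.08 and the 4 peripheral stalk genes -0.08. Atp5s and Atp5sl, which match the name but are no structural subunits, had the lowest levels, with Atp5s at 6.01 RPKM and a change of -0.57 ± 0.34.

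The c ring, the rotor that protons turn, is encoded by 3 genes with the same mature protein, and all 3 had a positive change, also under every alternative tried. Atp5g3 was at 61.1, 43.0 and 50.1 CPM and then 67.2, 67.6 and 79.2 CPM (0.47 ± 0.16, adjusted p = 0.0562 by edgeR). Atp5g2 was at 58.5, 48.8 and 56.9 CPM and then 61.7, 80.6 and 71.3 CPM (0.38 ± 0.15, adjusted p = 0.0859). In both genes the 24 h libraries lay above the 0 h libraries. Over all 17 genes of ATP synthase, 3 lay above in this way and 2 below, against 22.8% and 21.9% of all genes. Atp5g1 was at 44.0, 29.6 and 28.8 CPM and then 45.7, 39.5 and 55.8 CPM (0.46 ± 0.21, adjusted p = 0.135), with an overlap between the times. Their summed level was 163.6, 121.4 and 135.7 CPM at 0 h and 174.5, 187.8 and 206.3 CPM at 24 h. Its mean went from 140 ± 21.4 to 189.5 ± 16.0 CPM (SD, n = 3), without overlap. The c ring was set apart after a look at the counts and was the only part of ATP synthase summed. Its sum therefore adds no evidence beyond the single genes, and it was given no test. In the split among these genes, Atp5g1 was at 34.0% of the Atp5g1 and Atp5g3 level and then 33.9%. Without 0 h replicate 1, Atp5g3 and Atp5g1 were called higher (adjusted p = 0.0246 and 0.0351 by edgeR). Atp5g3 was also called higher on all 6 libraries with library totals only (0.56, adjusted p = 0.0229). Atp5g1 has 1 near-identical pseudogene copy and Atp5g2 has 2.

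**Figure D4:**
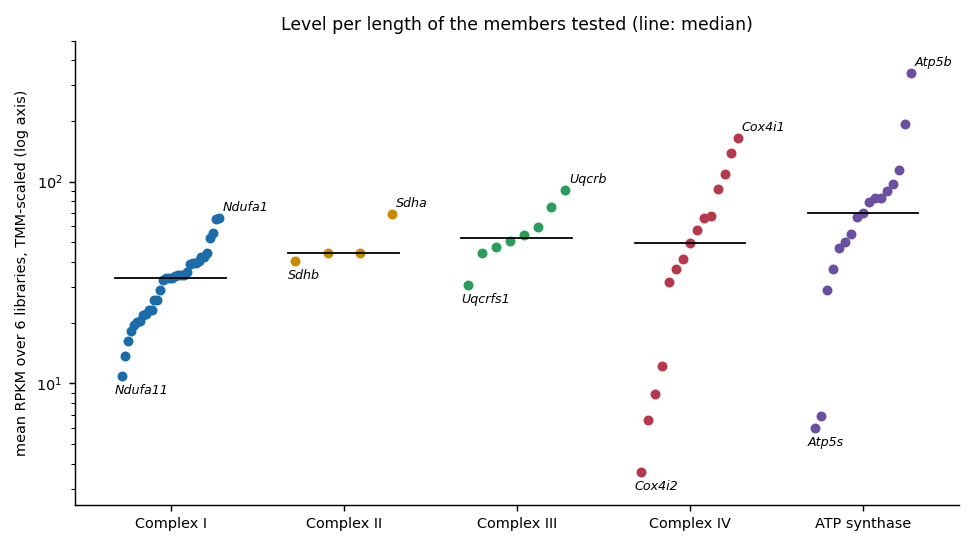
Mean level over the 6 libraries in TMM-scaled RPKM (vertical log axis) of each member tested, ordered by level within each complex, with a line at the complex's median. Medians lie between 33.3 in complex I and 70.0 in ATP synthase, and Atp5b is highest at 347. The variant forms and the ubiquitous Cox7c lie at the foot of complex IV, and Atp5s at that of ATP synthase.

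Measured as shares of all gene counts, the 84 genes together took 0.433%, 0.389% and 0.363% at 0 h and 0.399%, 0.432% and 0.460% at 24 h. The means of 0.395% ± 0.0353 and 0.431% ± 0.0306 (SD, n = 3) differed by about 1 SD (exact two-sided permutation p = 0.3). Complex III took 0.0386%, 0.0340% and 0.0306% and then 0.0403%, 0.0433% and 0.0430%, without overlap, which gives the smallest possible p of 0.1 and an adjusted p of 0.5 over 5 complexes. With TMM sizes as the denominator its p was 0.3. ATP synthase went from 0.172% to 0.197% (p = 0.2), and complexes I, II and IV differed by less than the spread between libraries (p of 0.8, 0.9 and 1, exact permutation). Shares depend on what else is in the library: crystallins took 12.9% to 20.2% of counts at 0 h and 6.93% to 8.73% at 24 h. With crystallins out of the denominator the difference for all members turned to -0.00362 percentage points. Without Rn45s, the ribosomal RNA precursor, in the denominator, an alternative added after seeing the data, it was 0.0641 in place of 0.0356 and that of ATP synthase 0.0382 in place of 0.0247. Neither then overlapped between the times (exact permutation p = 0.1, the smallest possible).

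The members tended to be high or low together in a library, also within a time. Of the 78 tested, 34 (43.6%, against 16.8% of all genes) had their highest value in 0 h replicate 1 and none its lowest there, while 29 (37.2% against 18.5%) had their lowest in 0 h replicate 2. The median member stood at 0.23, -0.18 and -0.05 on the log2 scale relative to the 0 h mean in the 0 h replicates, and at -0.08, -0.03 and 0.11 in the 24 h replicates, so the times overlapped. Leaving out 0 h replicate 1 moved the members' median change from -0.03 to 0.18. The same library had the largest crystallin share (20.2%), and 24 h replicate 1, with the lowest value of 21 members, gave 15.4% of its counts to Rn45s, a ribosomal RNA precursor, against 2.44% to 5.04% in the other libraries. The part of either in these values was not tested.

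Other genes of mitochondrial energy supply are given by their counts, to be read against the 28.2% of all genes called. Outside the naming rule are 6 further subunit or carrier genes, of which 2 rose. Cycs, cytochrome c, the mobile carrier between complexes III and IV, rose from 51.8, 35.6 and 50.1 CPM to 69.8, 81.1 and 89.8 CPM (0.81 ± 0.18, adjusted p = 0.0102 by edgeR). Cyc1, a cytochrome of complex III, rose from 52.3, 41.4 and 46.5 CPM to 70.4, 65.3 and 68.0 CPM (0.54 ± 0.13, adjusted p = 0.0175). In both genes the 24 h libraries lay above the 0 h libraries. Of 40 assembly factors tested, 2 rose and none fell, which is 5%. Their median was -0.03, and 0.07 with library totals only. Those that rose were Ndufaf4, a complex I assembly factor (0.86, adjusted p = 0.0124), and Cox18, which inserts a complex IV subunit into the inner membrane (1.00, adjusted p = 0.0264). Of the assembly, import and mitochondrial ribosome genes, 0 were lower at an unadjusted p under 0.05, and DESeq2 and limma-voom also called 0 lower. Without 0 h replicate 2, the count that rose was 1 among the further subunits and 1 among assembly factors, which also stood at 1 without 0 h replicate 3, 24 h replicate 1 or 24 h replicate 2.

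Import of proteins into mitochondria is the step through which all of these subunits pass. Of 25 import genes tested, 7 rose and none fell (28%, beside 15.2% of all genes called higher), with a median of 0.32. Tomm40, the channel of the outer membrane, rose from 24.9, 21.7 and 21.2 CPM to 54.8, 58.7 and 57.2 CPM (1.33 ± 0.14, adjusted p = 0.0003 by edgeR). Hspa9, the matrix chaperone that pulls proteins in, rose from 179, 174 and 174 CPM to 302, 319 and 252 CPM (0.73 ± 0.14, adjusted p = 0.0064). Of 77 genes of the mitochondrial ribosome, which makes the subunits encoded in mitochondria, 8 rose and none fell (10.4%, under the 15.2% of all genes), and 61 had a positive change, with a median of 0.21. Mrps18b had the lowest p, rising from 8.91, 10.7 and 14.0 CPM to 26.6, 38.6 and 24.5 CPM (1.42 ± 0.25, adjusted p = 0.00384), followed by Mrpl38 (0.77, adjusted p = 0.0106). The counts that rose were 3 import and 3 ribosome genes without 0 h replicate 2, 4 and 5 when 0 h replicate 3 was left out, and 4 of each list when 24 h replicate 2 was left out. The ribosome count was 5 when 24 h replicate 3 was left out.

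Of 17 genes of pyruvate dehydrogenase and the citric acid cycle, 4 rose and 1 fell (29.4%, close to the background), with a median of 0.15. Dlst, a subunit of oxoglutarate dehydrogenase, rose from 71.2, 69.3 and 61.3 CPM to 113, 130 and 111 CPM (0.81 ± 0.13, adjusted p = 0.00271 by edgeR). Mdh2, mitochondrial malate dehydrogenase, rose by 0.77 (adjusted p = 0.00536), as did citrate synthase, Cs (0.47, adjusted p = 0.0264), and Dlat (0.56, adjusted p = 0.0276). Suclg2, the GTP-forming succinate-CoA ligase subunit, fell by 0.67 (adjusted p = 0.0158). Sdha to Sdhd, which belong to the same cycle, were not called. The count that rose was 2 without 0 h replicate 2 or 3 or 24 h replicate 1 or 3, and the count that fell was 0 without 0 h replicate 3 or 24 h replicate 1.

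Among 14 regulators of mitochondrial gene expression, 2 rose and 2 fell (28.6%). Myc rose from 3.80, 7.40 and 4.51 CPM to 44.3, 52.3 and 33.9 CPM (3.05 ± 0.29, adjusted p = 0.000215 by edgeR). Pprc1, a coactivator of the PGC-1 family that is induced by growth signals, rose by 1.27 ± 0.14 (adjusted p = 0.000388). Its relative Ppargc1a, which encodes PGC-1 alpha, fell from 20.7, 34.9 and 26.7 CPM to 19.3, 10.7 and 10.8 CPM (-1.02 ± 0.29, adjusted p = 0.0312), and Mtor by 1.14. Leaving out any 1 library left 0 (without 0 h replicate 3) or 1 regulator called lower. Of 17 other targets of HIF-1, 3 fell and 1 rose (23.5%), with a median of -0.32, and without 24 h replicate 2 there were 7 that fell. That median was -0.04 without 24 h replicate 3, -0.13 without 24 h replicate 1 and -0.15 without 0 h replicate 3. Those that fell were Bnip3l (-1.28, adjusted p = 0.00153), P4ha2 (-1.50) and Pdk1 (-1.29). Adm rose with an adjusted p of 0.0021, from 0, 0.50 and 0 CPM to 8.17, 20.8 and 6.33 CPM. The dot plot sets these lists beside the subunits.

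**Figure D5:**
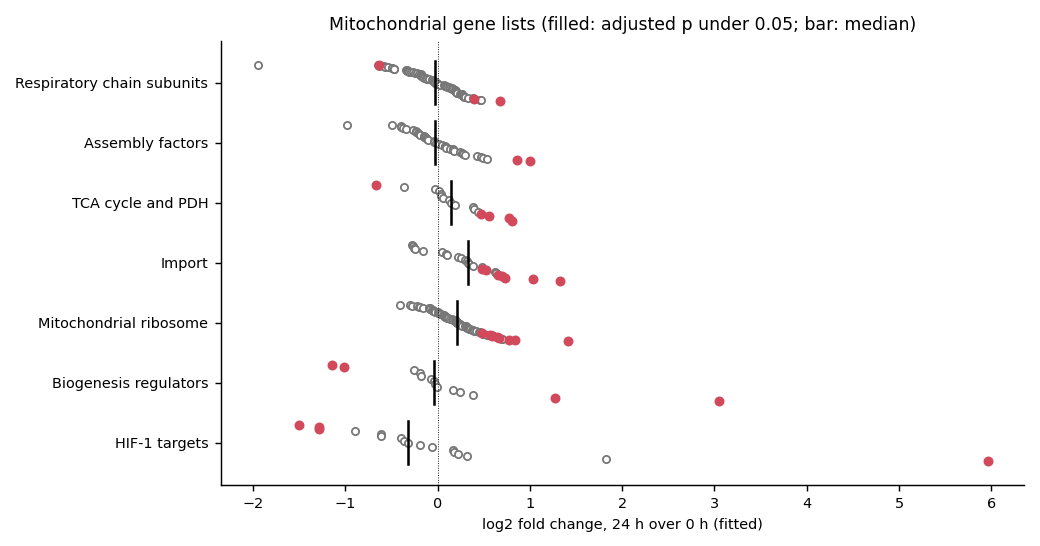
Log2 fold change of 24 h over 0 h (horizontal axis) of every tested gene in 7 lists (rows), with filled red points for an adjusted p under 0.05 and a bar at the list's median. Subunits and assembly factors centre near 0 (medians of -0.03), while import (0.32) and mitochondrial ribosome genes (0.21) lie to the right. HIF-1 targets have a median of -0.32 (-0.04 without 24 h replicate 3), with Adm at 5.96.

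Marker lists of the lens and of other cell types also differed between times. All 9 fiber markers fell, summing to 32950 to 54440 CPM at 0 h and 15210 to 17740 CPM at 24 h, and 5 of 9 lens epithelium markers fell, summing to 85810 to 145100 CPM and then 53500 to 66770 CPM. The epithelium list includes Cryaa and Cryab, and its highest level was 55210 RPKM against a median of 84.0, so its sum follows its highest genes. All 9 of its changes were negative, 3 of them under 0.5 on the log2 scale. The labelled tissue's markers, Foxe3 and Pitx3 included, were present in every library. Neutrophil markers summed to 8.61 to 17.4 CPM at 0 h and 116 to 222 CPM at 24 h, with 7 of 8 tested rising. Retnlg was at 0 in all 0 h libraries. Of 10 macrophage markers, 1 rose and 4 fell, with sums of 76.3 to 176 CPM and 76.8 to 150.6 CPM. Of 10 pigment and retinoid epithelium markers, 4 rose and 3 fell (216 to 411 CPM and 186 to 1230 CPM). None of 12 photoreceptor markers was called by edgeR, and none had an unadjusted p under 0.05, and their sum varied widely within each time (2184 to 6783 CPM and 1194 to 5392 CPM). With the mean log2 level of those markers as a covariate, members called lower numbered 4 in place of 1 and those called higher stayed at 2. The part of these cells in the members' levels was not tested.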

How the data were processed

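RNA was sequenced in 6 libraries (3 at 0 h, 3 at 24 h). Whole-number read counts per gene were deposited by the authors, per the file headers, with symbol, position and length. The deposited RPKM values equal count divided by length and summed counts (largest relative difference 5.33e-15) and entered no test. Per the submitters' processing notes, the build was mm10 and the tools included HTSeq 0.6.1p1 and TopHat2 2.1.0, with edgeR 3.16.5, Trim Galore 0.4.4, SAMtools 1.4 and bedtools 2.17. The labels' protocols name both an unstranded and a stranded TruSeq kit, and the sources used here give neither the strand setting nor the annotation.

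Counts were filtered with filterByExpr (13956 genes, at least 99.8% of each library's counts), scaled by TMM and tested with edgeR 4.0.16 in R 4.3.3 (quasi-likelihood, two-sided, no covariate), with Benjamini-Hochberg adjustment over all genes. DESeq2 1.42.0, limma-voom (limma 3.58.1), other scalings and filters, a 1.5-fold threshold, a replicate block, a photoreceptor covariate and leaving out each library were alternatives. The edgeR step was tested on simulated counts. RPKM used for levels was recomputed from counts with TMM. Isoform ratios used 0.5 counts as pseudocount. Near-identical copies (at least 98% over 100 bases) and opposite-strand overlaps (at least 10% of exonic bases) came from GENCODE M21, in which 83 members were found: 13 had copies and 10 such overlaps.

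The members and gene lists were chosen with earlier results of these data known, and subunit roles after a look at the counts. Named were called members, the 2 lowest p and the highest and lowest level of each complex, isoform pairs, and the 2 lowest p of each other list. Further genes were named after their values were seen. Promoters are RefSeq GRCm38.p6. One member is counted in the totals but not reported by name here.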

Additional observations from a re-analysis of the deposited data

How the results depend on the processing

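Members called higher numbered 2 and lower 1. With library totals only they numbered 4 and 1, with no filter on low counts 1 and 2, with DESeq2 2 and 2, with limma-voom 1 and 2, and with the photoreceptor covariate 2 and 4. Against a 1.5-fold change both counts were 0. Leaving out 1 library gave 0 to 4 higher, the most without 0 h replicate 1, and 0 to 3 lower, the most without 24 h replicate 3. The members' median change then ran from -0.14 to 0.18, the highest without 0 h replicate 1. The median over all genes was -0.03, and 0.06 with library totals only.

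Same-numbered libraries of the 2 times had correlations of deviations of 0.0866, 0.2151 and 0.3965, and 24 h replicate 1 correlated best with 0 h replicate 2 (0.1719), so the numbers were not taken to pair the libraries. With the replicate block, Atp5g3 was called higher (adjusted p = 0.0368 by edgeR) and Ndufb11 (0.0331), Cox7a2l and Ndufa4l2 lower, which makes 1 and 3. Cox5a and Ndufv2 then had adjusted p of 0.0536 and 0.0525. HIF-1 targets lower numbered 5 in place of 3, and Cox6a1 turned to 0.0076.

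In the other lists, a 1.5-fold threshold left 0 higher among the further subunits, 0 among assembly factors, 0 higher and 0 lower in the citric acid cycle, 0 lower among regulators, 1 import gene and 1 mitochondrial ribosome gene. Citric acid cycle genes higher numbered 7 with library totals only, and 1 assembly factor was lower with the photoreceptor covariate. Leaving out 1 library gave 1 to 2 further subunits higher, 1 to 2 assembly factors higher, 2 to 6 cycle genes higher and 0 to 1 lower, 0 to 1 regulators lower, 3 to 7 import genes higher, 3 to 7 mitochondrial ribosome genes higher and 3 to 7 HIF-1 targets lower. The lowest counts for import and ribosome genes came without 0 h replicate 2.

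Differences in share, in percentage points, turned without crystallins to -0.00362 for all members, -0.00682 for complex I and -0.006 for complex IV. With TMM sizes as denominator they turned to -0.00284 for complex I and -0.00352 for complex IV, and for complex II to 0.00204 without Rn45s, an alternative added after seeing the data. Leaving out 1 library, complex II ran from -0.00215 to 0.00099 and complex IV from -0.00336 to 0.00468. Log2 ratios ran from -0.284 to 0.5544 for Cox7a1 over Cox7a2 and from -0.106 to 0.0738 for Atp5g1 over Atp5g3.

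Among single genes, library totals turned Ndufa11 to 0.0503, Cox6a1 to 0.0618, Cox7b to 0.0086 and Cox8a to 0.0356, and limma-voom turned Cox6a1 to 0.0022. Leaving out 1 library gave -0.1442 to 0.1447 for Ndufa11, -0.3478 to 0.0024 for Sdhb, -0.2864 to 0.0794 for Cox4i1, -0.1398 to 0.2811 for Cox6a1, -0.0691 to 0.2766 for Cox7a2, -0.29 to 0.1707 for Cox7b, -0.221 to 0.2247 for Cox8a and -0.0277 to 0.2117 for Ndufa4. None of these was called. The cause of these differences was not tested. Over 15 alternatives, Cox7a2l passed the threshold in 11, Cox5a in 8, Ndufv2 in 7 and Ndufa4l2 in 6, each with its direction kept. With 3 libraries a time, a permutation p cannot go under 0.1, and members with 3 counts or fewer are not measurable at this depth.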
